A study of Macaca mulatta with 2 samples.

Results

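The 10 core circadian clock genes analysed here were the activators ARNTL and CLOCK, the repressors PER1, PER2, PER3, CRY1 and CRY2, the nuclear receptors NR1D1 and NR1D2, and the output gene DBP. They were chosen by their role in the clock, with some results of these libraries already known, and all 10 were found by symbol among the 33618 genes of the table. All 10 passed a filter of 1 CPM (reads relative to library size) in one library or the other, which left 18050 genes. In the library of the control animal the clock genes held between 487 reads (CRY1) and 3951 reads (CLOCK). In that of the sevoflurane-exposed animal they held between 249 reads (PER2) and 2449 reads (CLOCK), so each was far above the floor of 3 reads.

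RNA sequencing was available here for the prefrontal cortex of 1 control rhesus macaque (Macaca mulatta) and 1 sevoflurane-treated rhesus macaque, whereas the design text gives 3 animals per group. By the labels both animals were 28 days old, and the exposures to 2.5 to 3% sevoflurane, an inhaled anesthetic, were given at about postnatal days 7, 14 and 28 for 4 h each. The results section of the paper gives the same days as the labels, while its methods give other days for the second and the third exposure. The methods place the tissue collection directly after the final exposure, and describe sevoflurane given in oxygen with intubation. Neither the labels nor the methods give the hour at which either animal was sampled, or how the control animal was handled. The methods list a male only in the anesthesia group. By reads on Y-linked genes, the control animal was female and the exposed animal male. With 1 animal per group there is no replicate error, so every value compares these 2 libraries and not the conditions. Time of day, sex, animal and exposure cannot be told apart.

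The library of the control animal was the deeper, with 16960880 reads against 9839105 for the exposed animal. Markers of neurons, astrocytes, oligodendrocytes, microglia and endothelium had reads in both libraries, and no marker of these lists was at 0. Of the 7 oligodendrocyte markers, 6 were lower in the exposed animal by 2-fold or more, as were 2 of the 7 astrocyte markers, beside 5.47% of all tested genes. By the same measure 1 of the 7 microglia markers and 2 of the 6 choroid plexus and meningeal markers were higher, beside 7.56%. The summed level of the 7 oligodendrocyte markers was 4133 CPM in the control animal and 2020 CPM in the exposed animal. The astrocyte markers summed to 6147 and 4264 CPM, the neuron markers to 5298 and 4621 CPM, the microglia markers to 224 and 241 CPM and the endothelial markers to 150 and 153 CPM. Choroid plexus and meningeal markers summed to 207 and 350 CPM. Most of that difference lay in COL1A1 (77.8 and 172 CPM) and COL1A2 (89.6 and 136 CPM). TTR, a defining gene of choroid plexus, had 2 and 31 reads, while KL of the same list had 67 and 32. Reads on the 7 Y-linked genes numbered 3 in the control animal and 4308 in the exposed animal, so the animals differed in sex as well as in exposure. In bulk tissue, fewer cells of a type and less RNA per cell cannot be told apart, and the part of these differences in the clock gene values was not tested.

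The circadian clock is a feedback loop of transcription that runs in nearly every cell with a period of about a day. A dimer of the ARNTL protein (also called BMAL1) with CLOCK or its relative NPAS2 switches on the PER, CRY, NR1D and DBP genes through E-box sequences. PER and CRY proteins then return to the nucleus and block that dimer, while the NR1D receptors (REV-ERB) repress ARNTL and the ROR receptors activate it. In many tissues ARNTL transcripts therefore peak at about the opposite time of day to those of the NR1D, DBP and PER genes. PER1 and PER2 are also induced directly by signals such as neuronal activity and glucocorticoid hormone.

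PER2 was the clock gene that differed most, being lower in the exposed animal, while ARNTL, PER3 and NR1D1 were higher there by similar factors. By the rule used here, a gene was counted when its log2 ratio of sevoflurane over control was at least 1 in size and its 95% counting interval excluded equal expression. By that rule 1 of the 10 clock genes was lower and 3 were higher, beside 5.47% and 7.56% of all tested genes. The clock genes had a median log2 ratio of 0.02, between the extremes of -2.48 and 1.16. Over all tested genes the median was -0.0048, with a central 50% from -0.34 to 0.37. By the interval alone, 4 clock genes were lower, 4 were higher and 2 had an interval that included equal expression, beside 28.1% lower and 28.4% higher among all tested genes. The rule that named these genes also named this ratio, so the counts are a description and no test.

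**Figure D1:**
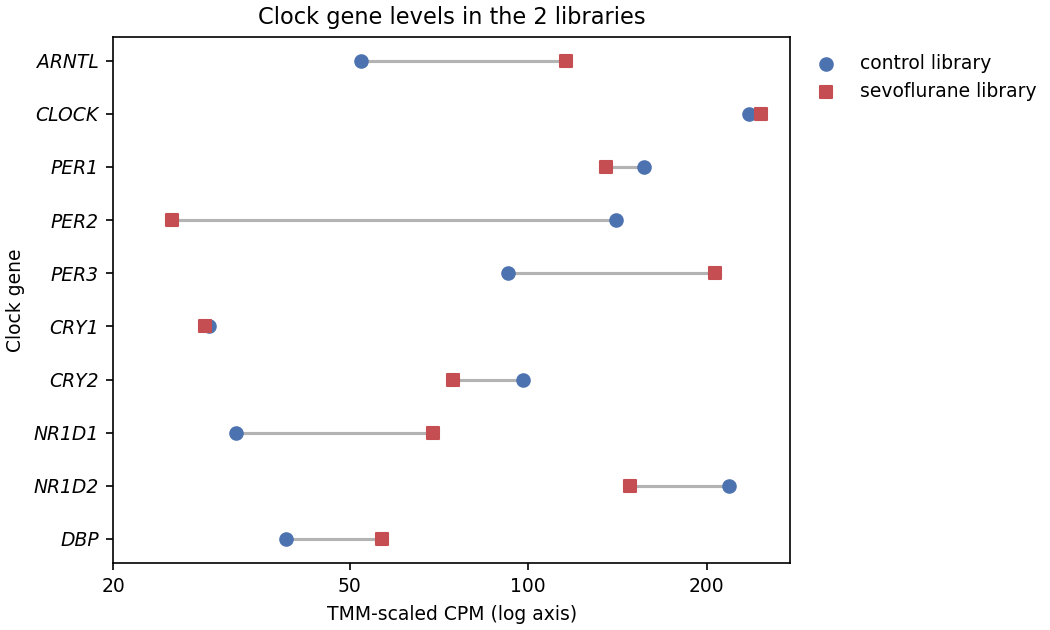
Level of each of the 10 clock genes in TMM-scaled CPM (horizontal log axis) in the control library (circles) and the sevoflurane library (squares), 1 animal each, with a line joining the pair. PER2 was at 140.5 CPM in the control library and 25.1 CPM in the sevoflurane library, while ARNTL, PER3 and NR1D1 were higher in the latter. Points of different genes are not comparable, since values are not scaled by transcript length.

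Of the activators, ARNTL, the partner of both CLOCK and NPAS2 in the dimer, had 880 reads in the control animal and 1152 in the exposed animal. The shallower library thus held more ARNTL reads than the deeper one. Scaled by library size (TMM), its level was 52.4 CPM in the control animal and 116 CPM in the exposed animal, a log2 ratio of 1.15 (95% counting interval 1.02 to 1.28), or 2.22-fold higher by CPM. CLOCK, its partner in the dimer and the deepest of the clock genes in reads, had 3951 and 2449 reads. At 235 and 247 CPM its log2 ratio was 0.07 and its interval of -0.0045 to 0.14 included equal expression. The partners in the activator dimer therefore differed in their ratio, with 4.49 CLOCK reads per ARNTL read in the control animal and 2.13 in the exposed animal.

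The 3 PER genes did not share a direction of difference. PER2, a repressor that is also an activity- and hormone-induced gene, had 2361 reads in the control animal and 249 in the exposed animal. Its level of 25.1 CPM in the exposed animal was 17.8% of the 140.5 CPM in the control animal, with a counting interval of 15.6% to 20.3%. The log2 ratio of -2.48 placed it 114th from the lowest among the 18050 tested genes.

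PER1, a repressor induced by the same signals, had 2631 reads in the control animal and 1345 in the exposed animal. It was at 86.5% of its control level, with a log2 ratio of -0.21 (interval -0.31 to -0.11), lower beyond counting error but within the central 50% of all tested genes. PER3, the PER gene that is least needed for the rhythm itself, had 1554 reads in the control animal and 2047 in the exposed animal. Its levels of 92.5 and 206 CPM gave a log2 ratio of 1.16 (interval 1.06 to 1.25), the highest of the clock genes and 1123rd from the highest of all tested genes.

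The summed level of the 3 PER genes was 390 CPM in the control animal and 367 CPM in the exposed animal, a log2 ratio of -0.09. Within that nearly level sum, PER2 gave 36.1% of the PER reads in the control animal and 6.84% in the exposed animal. PER3 gave 23.7% and 56.2%. PER1 gave 40.2% and 36.9%. The share of PER2 was thus smaller and that of PER3 larger in the exposed animal.

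The CRY genes encode the strongest blockers of the ARNTL and CLOCK dimer. CRY1 had 487 and 283 reads, or 29.0 and 28.5 CPM, and its interval of -0.24 to 0.19 included equal expression. CRY2 had 1644 and 742 reads, or 97.8 and 74.7 CPM, a log2 ratio of -0.39 (interval -0.52 to -0.26). Neither CRY gene reached 2-fold.

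The NR1D receptors, which repress ARNTL, differed between the animals in opposite directions. NR1D1 (REV-ERB alpha) had 541 reads in the control animal and 687 in the exposed animal. Its levels were 32.2 and 69.2 CPM, with a log2 ratio of 1.10, and its interval of 0.94 to 1.27 reached below 2-fold. NR1D2 (REV-ERB beta) had 3658 and 1472 reads, or 218 and 148 CPM, and was lower with a log2 ratio of -0.55 (interval -0.64 to -0.47). NR1D1 gave 12.9% of the NR1D reads in the control animal and 31.8% in the exposed animal. In the RefSeq annotation NR1D1 overlaps the thyroid hormone receptor gene THRA, and whether reads were counted by strand is not given in the sources used here. THRA had 2779 and 1486 reads, a log2 ratio of -0.14, so the NR1D1 value is given as uncertain to the extent that reads of the overlap were shared.

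DBP, a D-box transcription factor driven directly by the ARNTL and CLOCK dimer and often used as a readout of it, had 657 reads in the control animal and 563 in the exposed animal. Its levels were 39.1 and 56.7 CPM, and it was higher with a log2 ratio of 0.53 (interval 0.37 to 0.70), short of 2-fold.

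**Figure D2:**
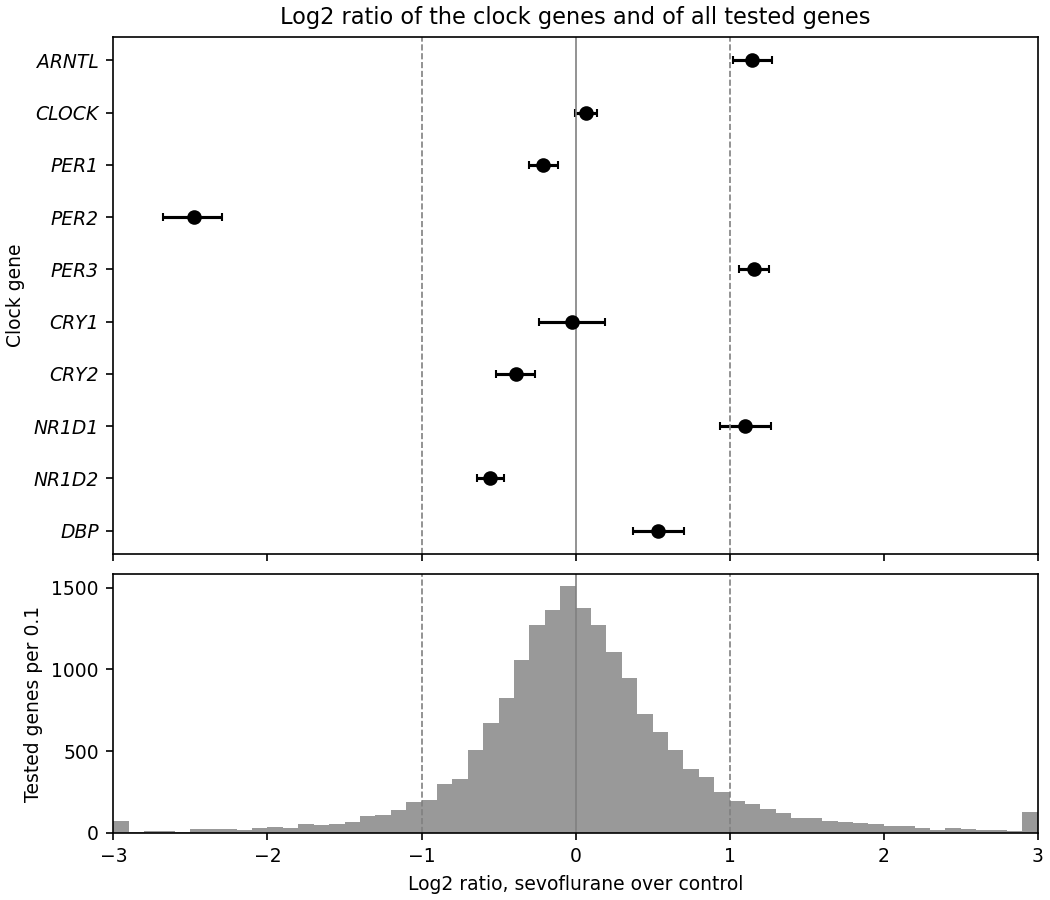
Upper panel, log2 ratio of sevoflurane over control for each clock gene with its 95% counting interval (bars), from 1 library per group. Lower panel, number of the 18050 tested genes per bin of 0.1 in the same ratio, with the 171 genes at a size of 3 or more drawn in the end bins. Solid lines mark equal expression and dashed lines 2-fold. PER2 at -2.48 lies in the lower tail, and ARNTL, PER3 and NR1D1 lie between 1.10 and 1.16.

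Ratios of reads between a pair of clock genes in the same library do not depend on library scaling, and gene length cancels when they are compared between libraries. Of the 8 pairs computed, 7 differed between the libraries beyond counting error, by the exact conditional 95% interval of the odds ratio. The same share was not computed for pairs of other genes. The pairs also reuse the same clock genes and restate their ratios, so this count is a description only. The widest difference was that of PER2 to ARNTL, a repressor against an activator. PER2 had 2.68 reads per ARNTL read in the control animal and 0.216 in the exposed animal, a difference of -3.63 on the log2 scale (interval -3.87 to -3.40). Against its own relative PER1, PER2 had 0.897 reads per read in the control animal and 0.185 in the exposed animal, a difference of -2.28 (interval -2.49 to -2.06). PER1 thus did not share the difference of PER2.

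Pairs that included NR1D1 gave different pictures. NR1D1 had 0.615 reads per ARNTL read in the control animal and 0.596 in the exposed animal, and the difference of -0.04 (interval -0.25 to 0.17) was within counting error. Both genes, a repressor and its target, were therefore higher by about the same factor. NR1D2 had 6.76 reads per NR1D1 read in the control animal and 2.14 in the exposed animal, a difference of -1.66 (interval -1.85 to -1.47). DBP had 0.747 reads per ARNTL read in the control animal and 0.489 in the exposed animal. The difference was -0.61 (interval -0.82 to -0.40), with ARNTL having the larger log2 ratio of the pair. The remaining pairs were PER3 to PER1 (1.37), CRY2 to CRY1 (-0.36) and CLOCK to ARNTL (-1.08).

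**Figure D3:**
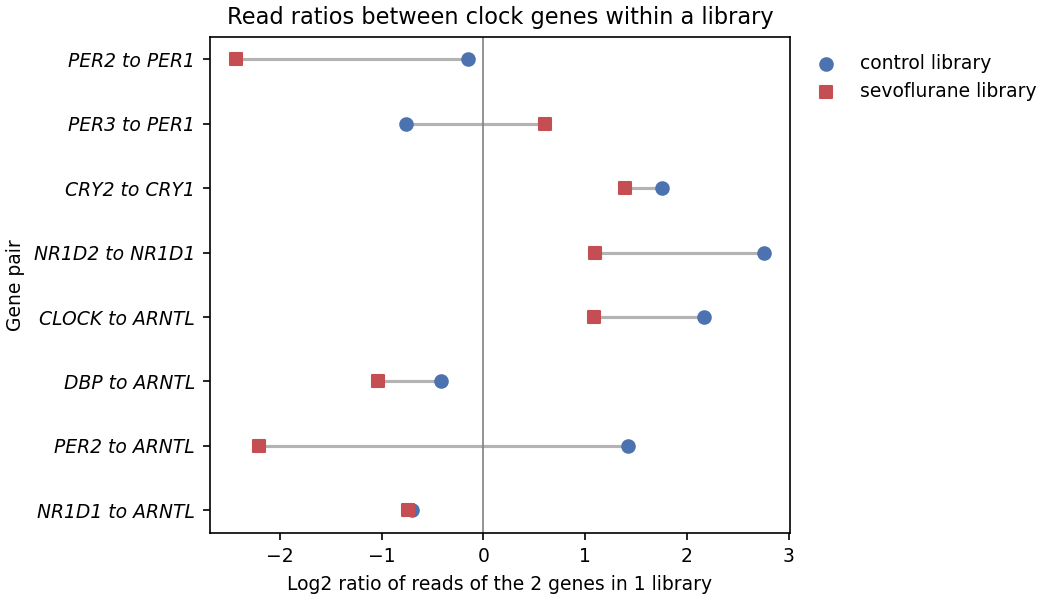
Log2 ratio of the reads of 2 clock genes in the same library (horizontal axis) for 8 pairs, in the control library (circles) and the sevoflurane library (squares), 1 animal each. The points of NR1D1 to ARNTL nearly coincide at -0.70 and -0.75, and those of PER2 to ARNTL are the farthest apart, at 1.42 and -2.21.

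Around the core loop, 51 further clock genes were described by role, and 47 passed the filter. Of these, 2 were higher and 3 were lower by 2-fold or more, beside 7.56% higher and 5.47% lower among all tested genes. By the interval alone, 16 were higher and 17 lower, beside 28.4% and 28.1% of all tested genes, and 14 had an interval that included equal expression. Their median log2 ratio was 0.03. The 4 that did not pass were FBXL21, AVP, MTNR1A and MTNR1B, each with at most 6 reads in either library.

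Among the relatives of the activators, NPAS2, which can replace CLOCK in the dimer, was higher (1760 and 1371 reads, log2 ratio 0.40, interval 0.30 to 0.50). ARNTL2, the paralog of ARNTL, was lower, with 572 and 181 reads (log2 ratio -0.90, interval -1.15 to -0.66), opposite to ARNTL itself. RORA and RORB, receptors that activate ARNTL, were both higher. RORA had 1494 and 1289 reads (log2 ratio 0.55) and RORB, a receptor of sensory and cortical neurons, 1626 and 1621 reads (0.75, interval 0.65 to 0.85).

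The D-box factors share the target sequence of DBP. TEF, an activator of the DBP family, had 33 and 61 reads and a log2 ratio of 1.57, with a wide interval of 1.01 to 2.30. HLF, the family member with the most reads, had 4281 and 2675 reads and differed by 0.08 (interval 0.01 to 0.15). NFIL3, which represses the same sites, had 189 and 131 reads and an interval of -0.10 to 0.56 that included equal expression.

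The E-box repressors act against the dimer, and BHLHE40 and BHLHE41 compete with it for its sites. BHLHE40 (DEC1), which many stimuli induce, had 1600 reads in the control animal and 420 in the exposed animal, a log2 ratio of -1.17 (interval -1.33 to -1.01). BHLHE41 (DEC2), its paralog, was higher with 207 and 211 reads (0.78, interval 0.50 to 1.07). CIART, a repressor of the dimer, was lower with 126 and 48 reads (-0.62, interval -1.14 to -0.14). BHLHE40 and BHLHE41 thus stood on opposite sides of equal expression.

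The next lists hold genes that act on clock proteins after translation. Of the 10 kinase genes, 0 reached 2-fold and their log2 ratios ran from -0.38 (CSNK2A2) to 0.15 (GSK3A). For a list of this size that is near the share over all tested genes, 7.56% higher and 5.47% lower. By the interval alone, 1 kinase gene was higher and 4 were lower, beside 28.4% higher and 28.1% lower among all tested genes. CSNK1D and CSNK1E, the casein kinases that mark PER proteins for destruction, could not be told from equal expression by counting error, with 2632 and 1627 reads for CSNK1D and 2632 and 1492 reads for CSNK1E. Of the 6 ubiquitin ligase and protease genes described that passed, 0 reached 2-fold, again near that share. BTRC and FBXW11, which target PER proteins, were at -0.16 and -0.19. USP2, a protease gene that is itself under clock control, was the highest of this group at 0.64 (937 and 861 reads).

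The chromatin cofactors had a median of 0.19 over 8 genes, with 0 past 2-fold, beside 7.56% higher and 5.47% lower among all tested genes. CREBBP, an acetyltransferase coactivator, was at 0.65 (4319 and 4001 reads), and PPARGC1A, a coactivator of the ROR receptors, at 0.71 (800 and 772 reads). NCOR1 and HDAC3, through which NR1D proteins repress, were at 0.32 and -0.32. The partners TIMELESS and TIPIN had 25 to 45 reads per library, too few to tell them from equal expression.

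Of the 5 listed output genes, KLF9, which the clock and glucocorticoids both drive, was at least 2-fold higher with 907 reads in the control animal and 1166 in the exposed animal (log2 ratio 1.12, interval 0.99 to 1.25). KLF15, a relative of it, was at 0.59 (interval 0.37 to 0.82). NAMPT, the rate-limiting enzyme of NAD salvage, was lower at -0.45 (interval -0.60 to -0.30), KLF10 was lower at -0.22, and the cell cycle kinase gene WEE1, with 91 and 48 reads, could not be told from equal expression.

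**Figure D4:**
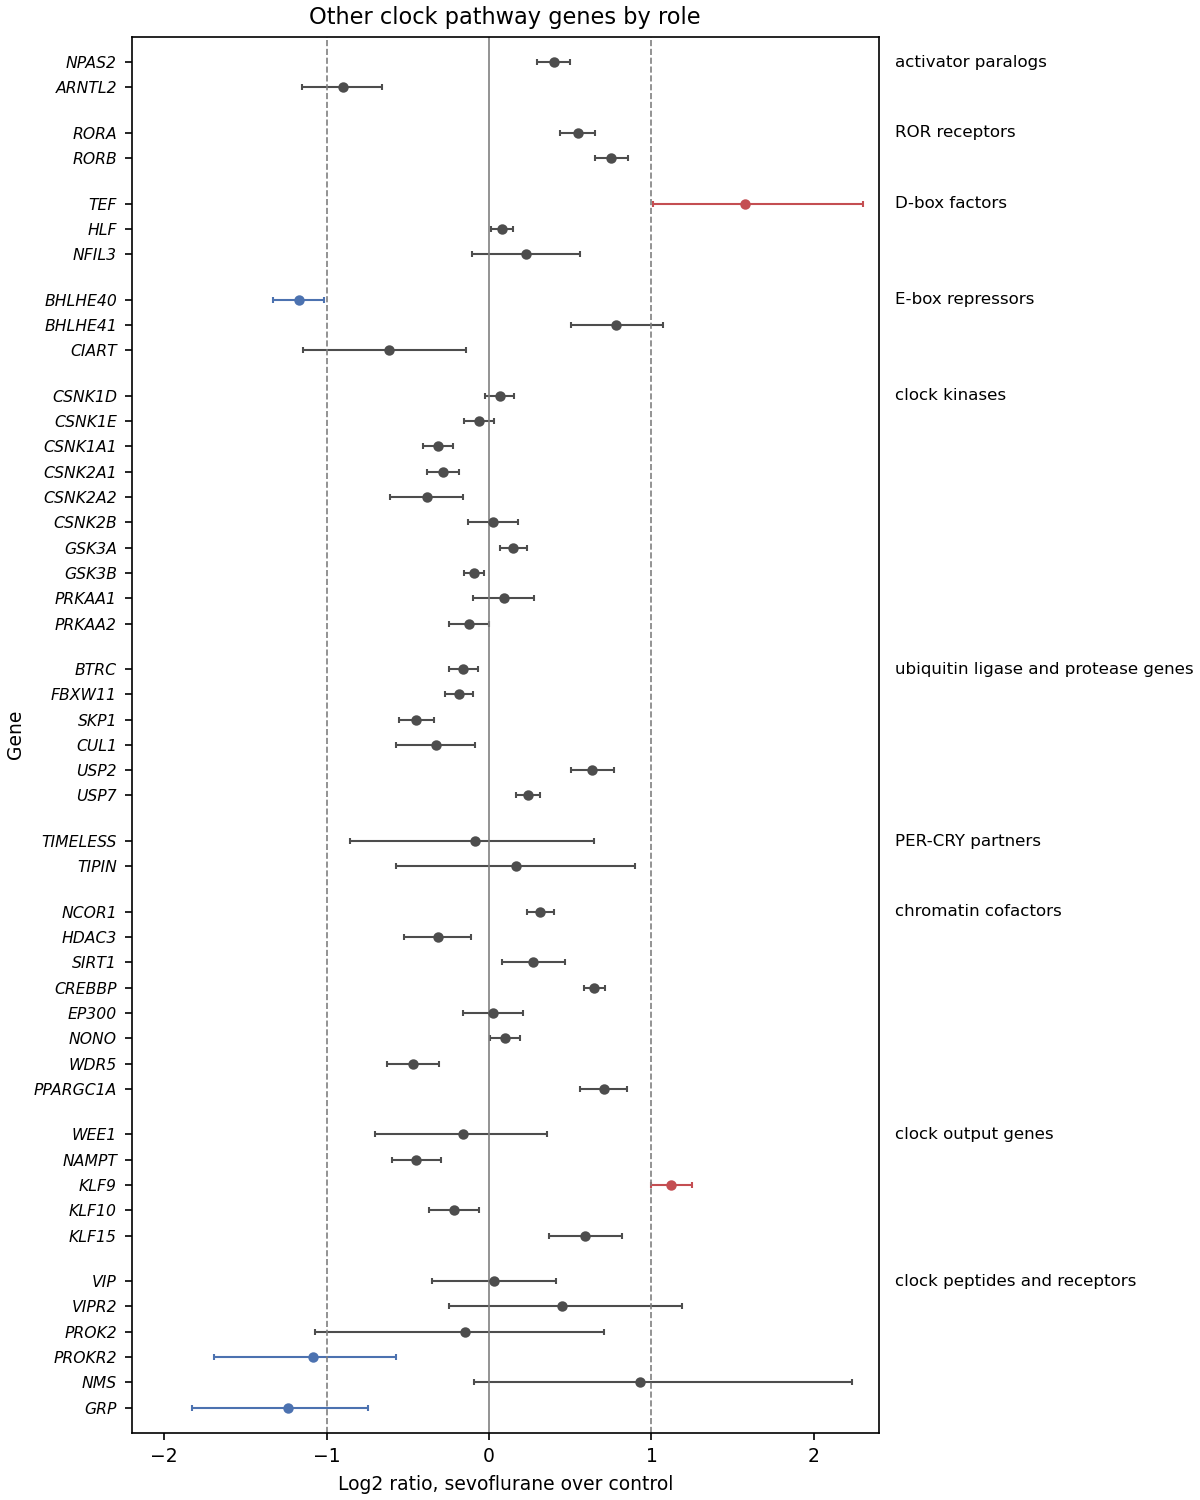
Log2 ratio of sevoflurane over control for 47 tested clock pathway genes outside the core 10, grouped by role, with 95% counting intervals (bars), from 1 library per group. Red marks the 2 genes counted as higher (TEF, KLF9), blue the 3 counted as lower (BHLHE40, PROKR2, GRP), dashed lines 2-fold. The kinases lie between -0.38 and 0.15.

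PER1, PER2, BHLHE40 and KLF9 also answer to neuronal activity or to glucocorticoid, so lists of such genes are given beside them. Of 10 activity-induced genes in the table, 6 were lower in the exposed animal by 2-fold or more, beside 5.47% of all tested genes, with a median log2 ratio of -2.14 and a summed level of 831 CPM in the control animal and 423 CPM in the exposed animal. Of 7 glucocorticoid-induced genes, 1 (FKBP5) was higher and 0 were lower by 2-fold or more, beside 7.56% and 5.47% of all tested genes, the median was 0.26, and the summed levels were 172 and 168 CPM. Log2 ratios ran from -4.12 to -0.12 in the first list and from -0.79 to 2.09 in the second. Beside them, PER2 was at -2.48, PER1 at -0.21, BHLHE40 at -1.17 and KLF9 at 1.12. The lists were chosen with earlier results known, so these values are a description only. The cold-induced RNA-binding protein gene CIRBP, known to affect clock amplitude, was lower at -0.66 (2427 and 907 reads) and RBM3 was at -0.11 with an interval that included equal expression. The paper's methods state that a warm box maintained the temperature of the macaques. The part of activity, hormone or temperature signals in the clock gene values was not tested.

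The counting intervals take no account of variation between animals. No transcript lengths were used here, so the order of different clock genes within a library was not read as an order of expression.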

How the data were processed

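Sequencing covered prefrontal cortex RNA of 1 control macaque and 1 macaque exposed to sevoflurane, grouped by their titles. The table deposited by the authors holds read counts, as whole numbers with no normalization. HISAT2 2.0.4 is named in the submitters' processing notes, and the counting tool, strand setting, genome build and annotation are not given in the sources used here, so no coordinates are printed. The clock genes, the 10 role lists and the context lists were chosen with earlier results of these data known. All 10 clock genes are named, and so are genes of the role lists, with those past 2-fold always included. No gene was named for likeness of pattern. Some items of the role lists are not reported here and were left out of their counts.

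TMM scaling (edgeR 4.0.16, R 4.3.3) was computed on genes reaching 1 CPM in one library or the other, and a prior count of 2 entered each log2 ratio of CPM. Folds, percentages and sums used CPM without it. The 95% intervals are exact, by Clopper-Pearson for the sevoflurane share of a gene's reads and by the conditional odds ratio for gene pairs (scipy 1.17.1). No molecular identifiers are named, so they cover counting error only, as do floors. Before TMM the floor of 3 reads was 0.177 CPM for the control and 0.305 CPM for the exposed animal. No p-value is printed, because a quasi-likelihood fit in edgeR needs replicates. Data were also simulated with counting error alone, with 200 genes changed 4-fold and no variation between animals. There 98.5% of the 198 tested were recovered, 95 unchanged genes were counted among 17728, and 95.5% of intervals held the true ratio. The simulation shares the assumption of the intervals, so it says nothing of the spread between animals. NR4A1 was not found in the table by that symbol. Neighbouring and overlapping genes were looked up by name in RefSeq (macaque assembly MMU8v2.0). Scaling was also done by library totals, upper quartile and the size factors of DESeq2 1.42.0. The other alternatives were a prior count of 0.5, a random draw of the control reads at the depth of the exposed animal, filters of 1 read or 5 CPM, a 99.9% interval, and thresholds of 1.5-fold or 4-fold. Plots used matplotlib 3.10.9 in Python 3.11.15.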

Additional observations from a re-analysis of the deposited data

How the results depend on the processing

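All 50 values of the 10 clock genes under the 5 alternatives of scaling, prior count and depth stayed within the counting interval of the value reported, with PER2 from -2.48 to -2.45, PER3 from 1.14 to 1.18, ARNTL from 1.14 to 1.17 and NR1D1 from 1.07 to 1.13. CRY1 alone among the clock genes changed sign, from -0.02 to 0.0025, within an interval that held equal expression. The number of clock genes counted as lower was 1 under all 10 alternatives, and the number counted as higher was 3 except with a 4-fold threshold, where it was 0. Over all genes, 988 were counted as lower and 1364 as higher. These became 474 and 606 when only genes at 5 CPM or more were tested, 2141 and 2604 at 1.5-fold, and 221 and 352 at 4-fold. No scaling moved the median of all genes by more than 0.027 on the log2 scale. No paired analysis was possible because there was 1 animal per group, which also left no replicate to leave out. Read number limits genes with few reads in either library, such as TEF with 33 control reads.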

Other observations

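Among the peptides and receptors of the central clock, 6 of 9 genes passed the filter and 2 were lower in the exposed animal by 2-fold or more, beside 5.47% of all tested genes. GRP, a peptide that some cortical neurons also make, had 151 reads in the control animal and 37 in the exposed animal (log2 ratio -1.24, 95% counting interval -1.83 to -0.74). PROKR2, the receptor for the clock output peptide PROK2, had 132 and 36 reads (-1.08, interval -1.69 to -0.57). VIP, which synchronizes clock neurons and also marks a class of cortical interneurons, had 157 and 95 reads, with an interval of -0.35 to 0.41 that included equal expression. AVP, a defining peptide of the central clock, had 4 and 5 reads, and the melatonin receptor gene MTNR1B had 0 reads in both libraries.

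The nearest genes on either side of the clock genes in the RefSeq annotation were read as well, a choice made after the clock gene values had been seen, and 14 of them passed the filter. Next to PER2 (-2.48), the gene HES6 had 217 reads in the control animal and 52 in the exposed animal, a log2 ratio of -1.28. DBP (0.53) lies between SPHK2 at 0.66 (56 and 53 reads) and CA11 at 0.83 (3164 and 3330 reads). NR1D2 (-0.55) lies between THRB at -0.59 and RPL15 at -0.54, which are 116830 and 29270 bases away in that assembly. VAMP2 was at -0.19 beside PER1 (-0.21), and TMEM165 at 0.22 beside CLOCK (0.07). No cutoff for likeness to the clock gene was set, and neighbours of other genes were not compared. The neighbour values are therefore a description only. BTBD10 was at -0.51 beside ARNTL (1.15), and VAMP3 at -0.27 beside PER3 (1.16). MED24 and MSL1 were at 0.12 and 0.07 beside NR1D1 (1.10), and MTERF2 was at 0.49 beside CRY1 (-0.02). The neighbours of CRY2 (-0.39) were MAPK8IP1 at -0.19 and SLC35C1 at 0.13. In the same annotation PER3 and CRY1 overlap long non-coding RNA genes and ARNTL overlaps a further protein-coding gene, none of them listed by that name in the table, so reads of these overlaps could not be told apart.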
